A study of Mus musculus with 6 samples.

Results

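The histone variants and histone chaperones described here are 10 genes: the linker histone genes H1f8 and H1f0, the histone H3.3 genes H3f3a and H3f3b, the chaperone genes Asf1a, Asf1b, Hira, Nasp and Chaf1a, and the nucleoplasmin gene Npm2. They were chosen by symbol, through probe sets that the platform annotation pairs with a single gene. It paired 15 probe sets with 7 of the 10 genes, out of 18193 genes with such a probe set. H1f0, Npm2 and Chaf1a had none listed and were not analysed here. A further 5 probe sets are annotated to H3f3a, H3f3b and other genes together, with 6 genes named in the first of them, and were not used.

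The samples were fully grown oocytes at the germinal vesicle (GV) stage, which are held before the first meiotic division and still have their nucleus. The XX group came from XX females and the XY group from their XY littermates of the strain B6.Y(TIR), whose Y chromosome leaves some XY animals with ovaries; the labels name no other treatment or allele. Females of both groups were 25 to 29 days old, received 5 IU of equine chorionic gonadotropin, and gave oocytes 45 to 47 hours later that were freed of cumulus cells. Each of the 6 arrays (XX 1 to XX 3 and XY 1 to XY 3, named biological replicates in the labels) held the amplified RNA of 10 pooled oocytes, so that differences between single oocytes cannot be seen.

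DNA in the nucleus is wound on histones, and chaperones carry histones to and from DNA. The oocyte stores histone and chaperone transcripts for use after fertilization, when protamines of the sperm are exchanged for maternal histones. H1f8 encodes the oocyte linker histone, which somatic linker histones later replace in the embryo. H3.3 is the H3 variant laid down outside DNA replication, largely by the HIRA complex, whereas the CAF-1 complex, of which Chaf1a encodes the large subunit, lays down H3 during replication. ASF1 hands H3-H4 dimers to both complexes, and NASP holds a soluble reserve of H3 and H4.

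Asf1b was higher in XY oocytes and was the only member to pass the test in the main setting. H1f8 had a level 1.67-fold lower in XY and missed the threshold narrowly. Nasp and Asf1a had slightly higher means in XY, Hira varied too much between arrays for a direction, and the single-gene probe sets of H3f3a and H3f3b were too dim to be tested. The test was limma on log2(quantile-normalized intensity + 9), where 9 was added to damp noise in dim signals, with Benjamini-Hochberg adjustment over all 12442 genes tested and a threshold of 0.05. Dim probe sets were left out, those that reached the median of their array on fewer than 3 of the 6 arrays, and 5 of the 7 measured members stayed in. Of these 5, 1 rose and 0 fell, and 2 had an unadjusted p under 0.05. Among all genes, 13.2% passed, 7.86% higher and 5.34% lower, and 32.2% had an unadjusted p under 0.05. The groups did not overlap for 4 of the 5 members, and for 38.8% of all genes. The members' median log2 change was 0.26 beside 0.07 for all genes.

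**Figure D1:**
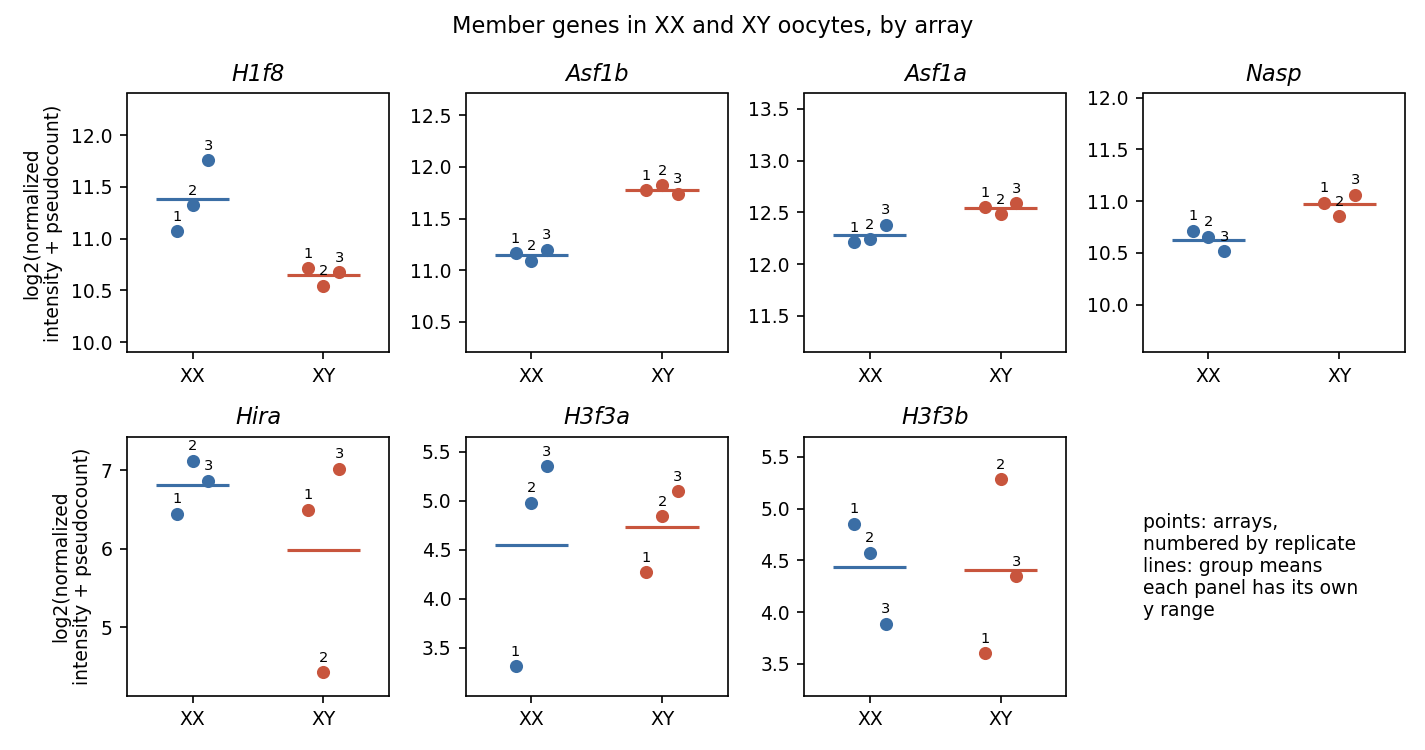
Levels of the 7 measured members on each array, as log2(quantile-normalized intensity + 9); points are arrays numbered by replicate, lines are group means, and each panel has its own range. All XX points of H1f8 lie above all XY points, with XX spread from 11.07 to 11.76, whereas the XX and XY points of Asf1b are tight and 0.63 apart.

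The arrays as deposited differed in overall level and in the shape of their distribution. Their median was 24.5, 28.5 and 28.8 on the XX arrays and 31.4, 31.0 and 29.2 on the XY arrays, in order of replicate. The mean trimmed by 2% at each end was 207, 289 and 332 in XX and 262, 194 and 204 in XY. Each XY median was thus above every XX median, whereas XX 3 and XX 2 had the highest trimmed means. Quantile normalization makes the distributions equal and removes both differences. Under other scalings the median change of all genes moved from 0.07 to -0.12 (as deposited), -0.27 (median scaling) and 0.18 (trimmed mean scaling), and the numbers of genes higher and lower in XY from 978 and 665 to 472 and 529, 482 and 1622, and 1423 and 586. Arrays correlated at 0.967 to 0.983 within XX, 0.980 to 0.982 within XY and 0.940 to 0.962 between groups. The log2 ratio of the 3' to the 5' Actb control probe set, which rises as RNA is shortened, averaged 4.46 in XX (SD 0.93) and 5.57 in XY (SD 0.35; 3 arrays each, exact two-sided permutation p = 0.2; 3 arrays against 3 cannot give a p below 0.1). XX 1, at 5.53, lay with the XY arrays in this ratio.

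The cells carried the markers of their label. All 12 listed oocyte markers passed the filter, with deposited intensities summing to between 59749 and 79525 in XY and between 78295 and 103340 in XX. These sums, like those of the lists below, were not scaled between arrays. After normalization the median log2 change of the 12 was -0.13. Of these 12, 2 fell in XY by limma, X-linked Bmp15 (-1.34, adjusted p = 0.0101), which encodes an oocyte growth factor, and Mos (-0.85, 0.0272), which encodes a kinase of meiotic arrest, and 0 rose. Among all genes, 5.34% fell and 7.86% rose. The 14 measured granulosa and cumulus markers summed to 507 to 671 in XX and 840 to 1078 in XY, and Inha, the inhibin alpha gene, rose among them (1.58, limma adjusted p = 0.0475). All 10 tested markers of this list had a higher mean in XY (0.06 to 1.58, median 0.54), and Amh, too dim to be tested, was at or below 6.47 on every array. Blood markers summed to 89.5 to 94.6 in XX and 138 to 151 in XY, and 2 of the 5 measured were bright enough to be tested. Cd68, a macrophage gene, rose (0.59, limma adjusted p = 0.0392), and Lyz2 was at 0.39 (0.236) with overlapping groups. Of those too dim, Ptprc and Alas2 were higher on each XY array than on any XX array. Hba-a1 was not, at 14.5, 19.4 and 19.1 in XX and 8.4, 13.9 and 20.5 in XY. Markers of theca, stroma and endothelium summed to 145 to 288 in XX and 312 to 499 in XY, and none of the 4 tested passed. Dcn, the decorin gene, was at 1.85 (limma adjusted p = 0.05, not below the threshold). It was the brightest of the list on each XY array, at 320, 199.5 and 134.6. Kdr was at 0.94, Col1a2 at 0.08 and Pecam1 at -0.21, each with overlapping groups. In pooled cells, fewer cells of a type and less RNA per cell cannot be told apart. The part of these markers in the results was not tested.

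The linker histone gene H1f8 had deposited intensities of 1794, 3034 and 4650 on the XX arrays, in order of replicate. On the XY arrays they were 1747, 1115 and 1308. The groups did not overlap, but XX 1 lay only just above XY 1, and XX 3 was the highest. After normalization the XX log2 level was 11.39 ± 0.35 and the XY level 10.64 ± 0.09 (SD, n = 3 arrays). The log2 change of -0.74 ± 0.20 (SE, 95% interval -1.22 to -0.27) had a limma adjusted p of 0.0535. Leaving out XX 1, which resembled the XY arrays in its Actb ratio, gave -0.89 with an adjusted p of 0.0177. Leaving out any other array gave an adjusted p from 0.109 to 0.150. With the Actb ratio as a covariate the change was -0.51 (adjusted p = 0.304).

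The direction of H1f8 held under each scaling, though its size did not. The log2 change was -1.10 without scaling (adjusted p = 0.0634), -1.26 with median scaling (0.0173) and -0.79 with trimmed mean scaling (0.0433). Relative to the median of all genes under the same scaling, these are -0.98, -0.99 and -0.97, beside -0.81 in the main setting. Over 17 alternative settings H1f8 was lower in XY in each, from -1.26 to -0.51, and passed the threshold in 7.

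The ASF1 chaperones come from a pair of genes, Asf1a and Asf1b. Asf1b, the paralogue tied to dividing cells, had deposited intensities of 1926, 2608 and 3207 on the XX arrays and of 3653, 2730 and 2745 on the XY arrays, which overlap. Once the arrays were normalized, the log2 levels were 11.16, 11.09 and 11.20 in XX and 11.77, 11.82 and 11.74 in XY. The groups then stood apart by several times the spread within either (SD 0.05 in XX and 0.04 in XY). Asf1b rose by 0.63 ± 0.13 (log2 ± SE, 95% interval 0.31 to 0.94), or 1.54-fold, with a limma adjusted p of 0.0273. As 1 of 22997 probe sets tested singly, of which 10.5% passed, its adjusted p was 0.0390.

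The call of Asf1b depended on the scaling, on which array was left out and on other settings. Over 17 alternative settings Asf1b was higher in XY in each, from 0.09 to 0.66, and passed the threshold in 7. Without scaling its log2 change was 0.25 (adjusted p = 0.626), and median scaling gave 0.09 (0.821). Against the median of all genes under those scalings, the same changes were 0.37 and 0.36, beside 0.56 in the main setting. Trimmed mean scaling gave 0.57, which passed (limma adjusted p = 0.0374). The change was between 0.60 and 0.66 without any 1 array. It passed when XX 1 was left out (adjusted p = 0.0179). It missed when XX 2 (0.0765) or XX 3 (0.0584) was, and likewise for XY 1 (0.0837), XY 2 (0.102) and XY 3 (0.0864). With no filter on dim signals the adjusted p was 0.0623, with the replicate number as a block 0.0871, and with the Actb ratio as a covariate 0.112 at a change of 0.63.

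Asf1a, the broadly expressed paralogue, had deposited intensities of 4275, 5598 and 6788 in XX and of 6499, 4381 and 5155 in XY. Its normalized levels did not overlap: XX stood at 12.28 ± 0.09 and XY at 12.54 ± 0.05 (SD, n = 3 arrays). The log2 change of 0.26 ± 0.14 (SE, 95% interval -0.06 to 0.59) did not pass (limma adjusted p = 0.233). Its sign turned without scaling (-0.05) and under median scaling (-0.21). The second Asf1a probe set was dimmer, between 144 and 268, and had a change of -0.11 (adjusted p = 0.695) with overlapping groups.

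A ratio of both paralogues within an array does not depend on how arrays are scaled to each other by a constant factor. From the deposited values, the log2 ratio of Asf1b to Asf1a was -1.15, -1.10 and -1.08 on the XX arrays (mean -1.11, SD 0.04), and on the XY arrays it was -0.83, -0.68 and -0.91 (mean -0.81, SD 0.12). It was higher on each XY array than on any XX array, by 0.30 between the means. The exact two-sided permutation p was 0.1, the smallest that 3 arrays against 3 can give, so this test could not have passed 0.05 and does not decide whether the changes of Asf1a and Asf1b differ. Of the other planned pairs, H1f8 with H1f0 could not be formed, since H1f0 had no single-gene probe set. The pair of H3f3b and H3f3a was too dim for its ratio to be a test. Counting that pair, the permutation p of Asf1b to Asf1a adjusted over 2 pairs is 0.2. The ratio of H1f8 to Asf1a, chosen after the values were seen and given without a test, was -1.25, -0.88 and -0.55 in XX and -1.90, -1.97 and -1.98 in XY. The ratio of H1f8 to Nasp was 0.38, 0.67 and 1.21 in XX and -0.28, -0.32 and -0.37 in XY. In both, the XY arrays were close together and XX 1 was the XX array nearest to them.

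**Figure D2:**
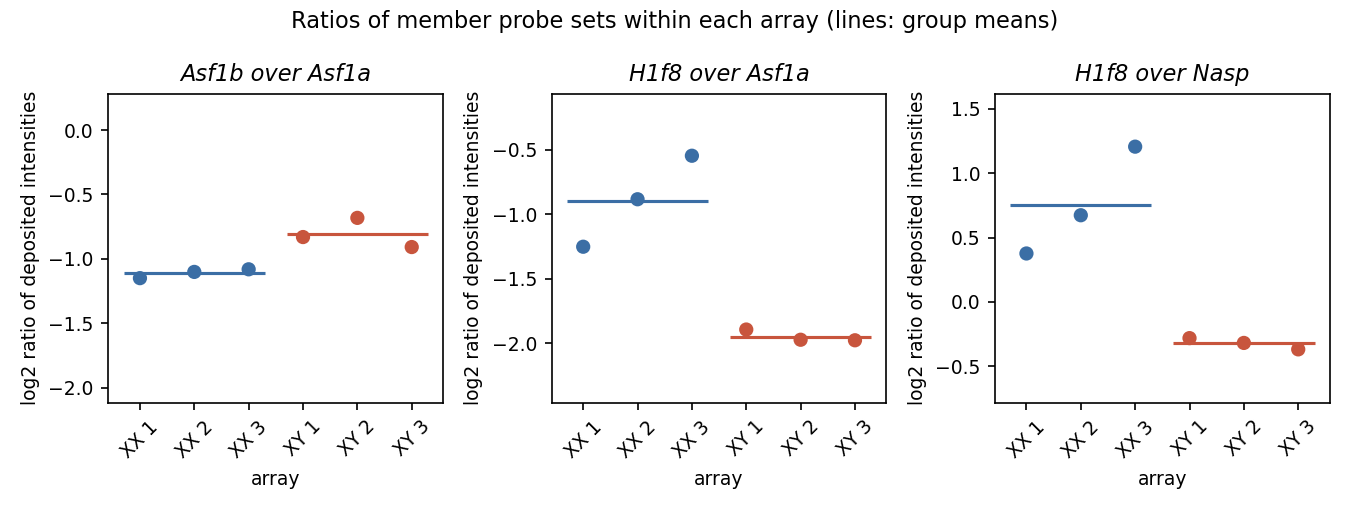
Log2 ratios of the deposited intensities of member probe sets within each array; points are arrays (XX blue, XY red) and lines are group means. In each panel the XX and XY arrays do not overlap, and XY is tight in both H1f8 panels (SD 0.05 and 0.04) where XX is spread (SD 0.35 and 0.42).

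The promoters of the genes above are shown because H1f8 and Asf1b had the smallest p-values among the members, with opposite signs, and Asf1a is the paralogue of Asf1b. Each line is the 250 bases before the annotated start, from RefSeq on GRCm38.p6, 5' to 3' on the gene's strand, with CCAAT boxes (CCAAT, or ATTGG on the other strand) in capitals. H1f8 lies at chr6:115944681-115944930, Asf1b at chr8:83955444-83955693 and Asf1a at chr10:53596711-53596960, all on the plus strand.
H1f8: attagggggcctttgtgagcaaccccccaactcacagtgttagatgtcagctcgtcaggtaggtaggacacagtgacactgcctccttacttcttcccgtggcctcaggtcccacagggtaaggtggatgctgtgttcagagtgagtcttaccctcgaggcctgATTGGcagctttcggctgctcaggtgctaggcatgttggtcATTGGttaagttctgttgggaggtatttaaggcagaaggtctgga
Asf1b: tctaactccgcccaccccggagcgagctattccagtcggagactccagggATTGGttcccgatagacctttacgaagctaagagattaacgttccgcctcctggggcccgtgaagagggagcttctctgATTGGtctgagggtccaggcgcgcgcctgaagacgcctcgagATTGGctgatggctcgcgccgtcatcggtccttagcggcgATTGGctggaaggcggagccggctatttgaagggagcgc
Asf1a: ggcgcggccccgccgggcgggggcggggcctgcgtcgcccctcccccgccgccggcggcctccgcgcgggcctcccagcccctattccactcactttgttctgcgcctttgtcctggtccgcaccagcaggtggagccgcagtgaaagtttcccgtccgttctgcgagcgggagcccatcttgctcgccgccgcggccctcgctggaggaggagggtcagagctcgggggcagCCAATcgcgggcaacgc

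Of the 10 genes, 9 had a promoter in the RefSeq table. Asf1b held 4 CCAAT boxes, as did H3f3b, H1f8 held 2 and Asf1a 1. At least 1 was found in 33.8% of 32851 promoters of this length, and 4 or more in 0.84%. The H1f8 promoter held 4 CpG dinucleotides, close to the median of 6 over all promoters, against 23 in Asf1b and 31 in Asf1a. An E-box (CANNTG, the same on both strands) occurred once in H1f8 and once in Asf1a, and not in Asf1b, and 66.2% of promoters held one. No GC box (GGGCGG, both strands, in 32.7% of promoters) was found in H1f8, 1 in Asf1b and 2 in Asf1a. The TATA box TATAAA (in 12.4%) and the TAATTG element (in 7.17%), searched on both strands, were in none of these 3 windows. No motif match overlapped another in the 3 windows. These counts describe letters, not sites in use.

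Nasp, the H3-H4 reserve chaperone, had 5 probe sets, of which 1 was bright, 1 passed the filter through the 3 XX arrays alone and 3 stayed below the median on every array. The bright one, of the type marked as shared between transcripts, read 1382, 1902 and 2016 in XX and 2123, 1390 and 1688 in XY as deposited. Normalized, XX stood at 10.63 ± 0.10 and XY at 10.97 ± 0.10 (SD, n = 3 arrays) without overlap. The log2 change of 0.34 ± 0.14 (SE, 95% interval -0.0002 to 0.68) did not pass (limma adjusted p = 0.155), and its sign turned without scaling (-0.03) and under median scaling (-0.19). The dimmer probe set, between 19.0 and 56.5 as deposited, was kept only through the group where it is higher, and its change of -0.62 is given as a description. With it averaged in, Nasp stood at -0.14.

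Hira, which encodes the scaffold of the H3.3 deposition complex, was dim and its probe sets disagreed. The one with the highest mean read 64.8, 144 and 129 on the XX arrays and 88.9, 13.9 and 110 on the XY arrays. A single array, XY 2, lay far below the other 5, and the groups overlapped. The log2 change was -0.83 ± 0.62 (SE, 95% interval -2.29 to 0.63; limma adjusted p = 0.389), and -0.06 without XY 2. The other kept probe set, also of the shared type, was at 0.59 (adjusted p = 0.200) without overlap. Without XX 2 this second probe set became the brighter, and Hira stood at 0.28. The remaining 2 Hira probe sets stayed below the median of every array.

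The single-gene probe sets of H3f3a and H3f3b did not give a level for H3.3. The one for H3f3a read 0.83, 22.0 and 31.8 in XX and 11.3, 21.6 and 25.6 in XY, and that for H3f3b read 17.1, 14.0 and 5.55 in XX and 3.41, 32.0 and 11.6 in XY. Each reached the median on 1 of 6 arrays, and the groups overlapped in both. With no filter the log2 changes were 0.19 for H3f3a (95% interval -1.07 to 1.45) and -0.03 for H3f3b (-1.10 to 1.04), intervals that hold changes of 2-fold in either direction. Both genes encode the same H3.3 protein, and these values say nothing of their summed transcript.

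**Figure D3:**
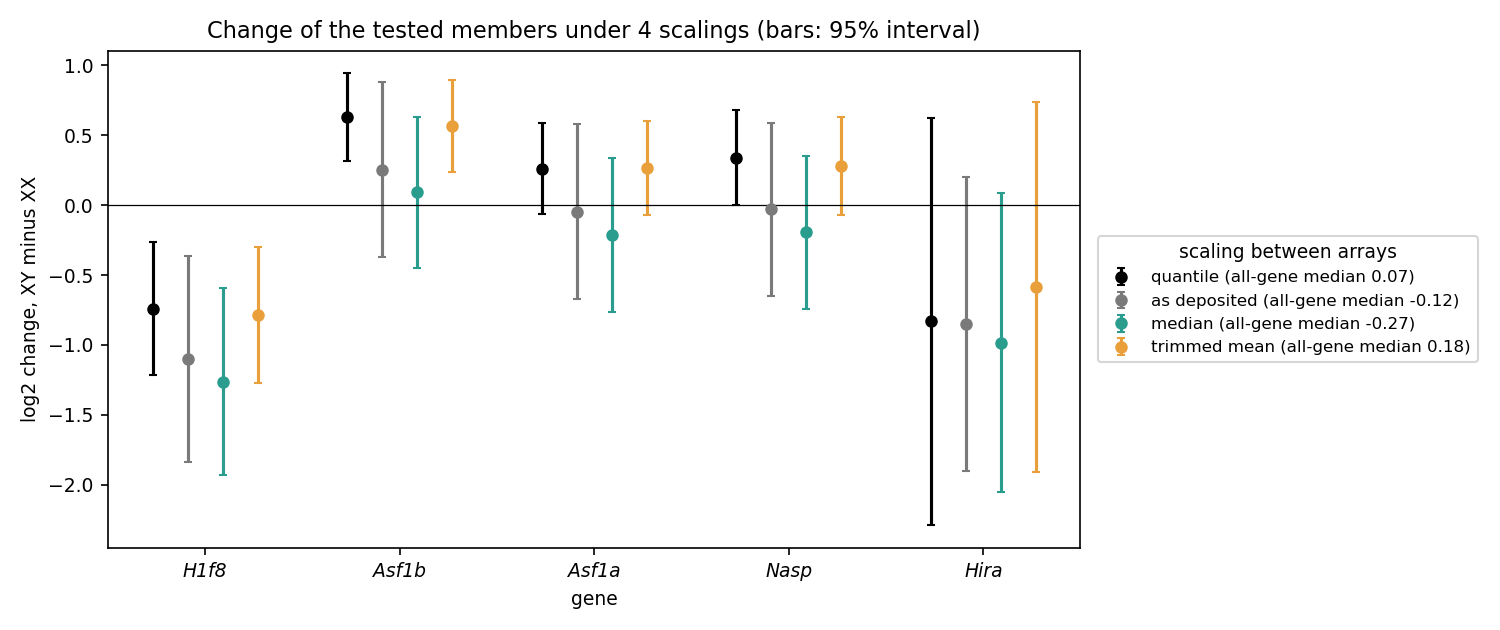
Log2 change, XY minus XX, of the 5 tested members with 95% intervals under 4 ways of scaling the arrays; the legend gives the median change of all genes under each. H1f8 lies below 0 with its whole interval in all 4, whereas the interval of Asf1b lies above 0 under quantile and trimmed mean scaling and spans 0 under the other 2.

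Genes that work with the members were described from lists by role. Over 49 tested genes of 5 lists, 2 rose and 4 fell, against the 7.86% and 5.34% of all genes given above, and the median change was 0.00. Among 16 partners of H3-H4 chaperones, 1 rose and 2 fell (median -0.10). The 2 that fell were Atrx and Daxx. Their products share another H3.3 route, in which DAXX carries H3.3 to repeats and telomeres with the remodeller ATRX. A change of this route as a whole was not tested. X-linked Atrx had levels of 11.51, 11.91 and 11.71 in XX and 10.74, 10.79 and 10.93 in XY, and it fell by 0.89 ± 0.16 (log2 ± SE, limma adjusted p = 0.0171). All 6 kept Atrx probe sets were lower in XY, by log2 changes from -1.90 to -0.69, and 5 passed. Daxx had levels of 9.46, 9.11 and 9.42 in XX and 8.82, 8.56 and 8.71 in XY, and it fell by 0.63 ± 0.16 (adjusted p = 0.0476).

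Those calls were close to the threshold in several settings. Atrx passed in 10 of 17 alternatives (adjusted p from 0.00251 to 0.111) and Daxx in 7 (0.0176 to 0.150), with both lower in XY in each. Daxx did not pass without scaling (-0.93, adjusted p = 0.0718), with no pseudocount (0.0571), with no filter (0.0938) or with the Actb covariate (0.0917), and Atrx did not with that covariate (-0.70, 0.111). With the replicate number as a block, neither Atrx (0.0529) nor Daxx (0.0854) passed. When each probe set was tested singly, that of Daxx had a limma adjusted p of 0.0619. Atrx also missed without XX 2 (0.0536), XX 3 (0.0519), XY 1 (0.0607), XY 2 (0.0669) or XY 3 (0.0514), and Daxx without XX 2 (0.0598), XX 3 (0.122), XY 1 (0.0931), XY 2 (0.150) or XY 3 (0.124).

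Rbbp4, a histone-binding subunit of CAF-1, rose by 0.58 ± 0.14 (limma adjusted p = 0.0392), but on a probe set of a type that may match several transcripts. Its other kept probe sets were at -0.38 and 0.17, the mean of all was at 0.12 (adjusted p = 0.585), and the call held in 5 of 17 alternatives. Without scaling it was at 0.31 (0.512) and under median scaling at 0.15 (0.692). It also missed with trimmed mean scaling (0.0564), no filter (0.0825), the Actb covariate (0.182) and the replicate number as a block (0.102). The same held when any array but XX 1 was left out (0.0943 to 0.127). When each probe set was tested singly, the one that rose had a limma adjusted p of 0.0541. The CAF-1 subunit gene Chaf1b (0.03), the HIRA complex genes Ubn1 (-0.25), Ubn2 (-0.18) and Cabin1 (-0.29), and X-linked Rbbp7 (-0.15) did not pass, with adjusted p from 0.286 to 0.888.

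Of 8 other replacement variants tested, 1 rose and 0 fell, beside 7.86% and 5.34% of all genes, with a median of 0.18. Macroh2a1, which encodes the large H2A variant found on silent chromatin, had levels of 8.19, 8.07 and 7.83 in XX and 8.86, 8.66 and 8.73 in XY, and it rose by 0.72 ± 0.16 (limma adjusted p = 0.0297). It passed in 7 of 17 alternatives. It missed without scaling (0.46, adjusted p = 0.346), under median scaling (0.30, 0.418), with no filter (0.0636), with the Actb covariate (0.173) and with the replicate number as a block (0.073). Nor did it pass without XX 2 (0.0762), XX 3 (0.0801), XY 1 (0.0943), XY 2 (0.0783) or XY 3 (0.0877). H2az1 (0.70, adjusted p = 0.126), the centromeric Cenpa (0.19, 0.438) and H2ax, of the DNA damage response (-0.22, 0.400), did not pass.

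Of 11 core and linker histone genes matched by symbol, 6 were tested, and of these 0 rose and 2 fell (median -0.34). Among all genes, 7.86% rose and 5.34% fell. Of the 6, 3 had an unadjusted limma p under 0.05, beside 32.2% of all genes, and 6 genes are too few to compare shares. H2ac19 had levels of 7.58, 7.27 and 7.25 in XX and 6.34, 5.64 and 5.76 in XY, and it fell by 1.45 ± 0.22 (limma adjusted p = 0.0110). Its second probe set fell by 0.97, and the gene passed in all 17 alternatives (adjusted p from 0.00287 to 0.0460). H3c7 fell by 0.81 ± 0.14 (adjusted p = 0.0154) and passed in 11 of 17. It missed without scaling (0.0526), with the Actb covariate (0.0662), with the replicate number as a block (0.0592) and without XY 1 (0.0569), XY 2 (0.0541) or XY 3 (0.0561). Histone H2A and H3 genes are near-identical copies, so a probe set can read several of them. Most histone mRNAs end in a stem-loop without a poly(A) tail, and the RNA was primed with oligo(dT). The linker histone gene H1f2 was at 0.88 (adjusted p = 0.0649), the opposite sign to H1f8, without overlap between the groups.

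Of 12 H2A-H2B chaperone and exchange genes, 0 rose and 0 fell by limma (median 0.09), with 3 at an unadjusted p under 0.05 and groups that did not overlap in 5, shares near the 32.2% and 38.8% of all genes. Supt16, a subunit of the FACT complex that opens nucleosomes ahead of polymerases, had the smallest p, with a log2 change of -0.89 ± 0.26 (adjusted p = 0.0618). Npm1, the somatic relative of Npm2, was at 0.25 (0.308) with overlapping groups.

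**Figure D4:**
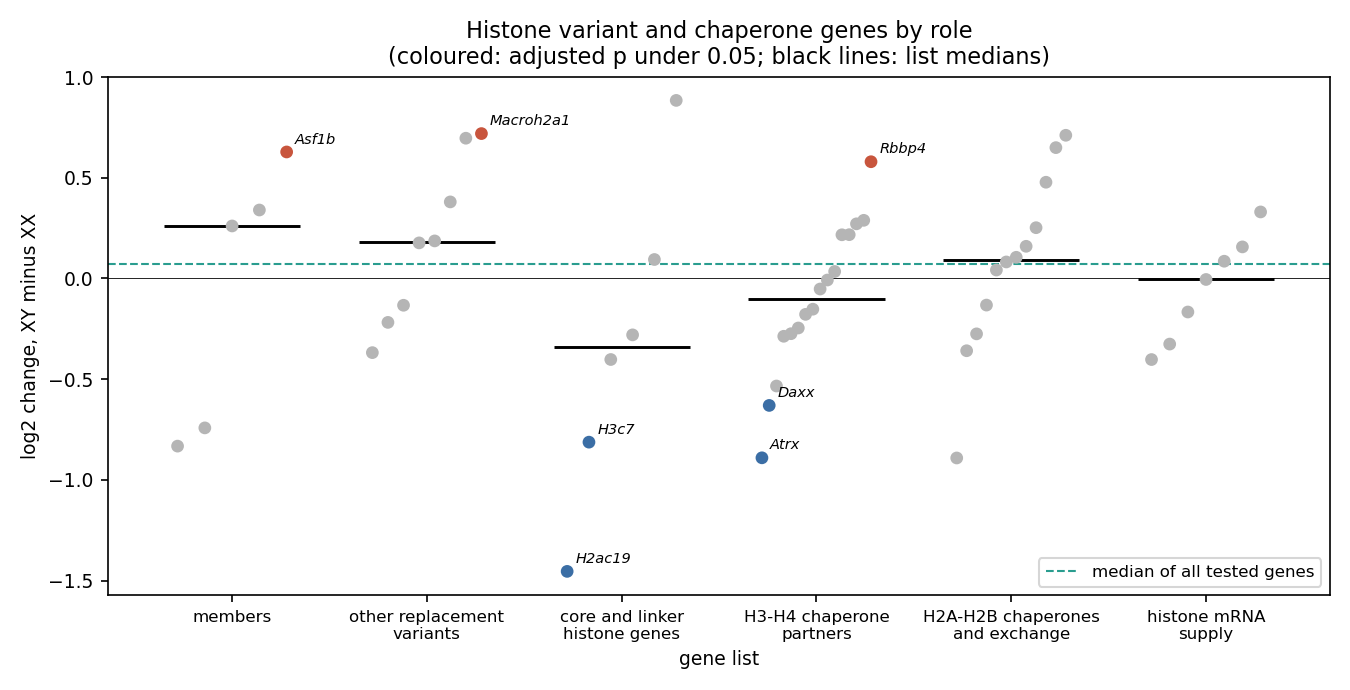
Log2 change, XY minus XX, of each tested gene by list, with genes past an adjusted p of 0.05 coloured (red higher, blue lower), black lines at list medians and a dashed line at the median of all genes, 0.07. Asf1b, Macroh2a1 and Rbbp4 are the coloured points above 0, and H2ac19, Atrx, H3c7 and Daxx those below.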

How the data were processed

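The authors deposited linear intensities, 1 for each probe set on each array. The submitters' processing notes name MAS5, without a version or a target value. Of 45037 probe sets that are not controls, 34945 had 1 gene symbol and 34741 of these were given current symbols through the gene table of GRCm38.p6; 932 had several symbols and 9160 had none listed, and these were not named.

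Arrays were quantile-normalized, and log2(intensity + 9) was fitted with limma 3.58.1 in R 4.3.3 (lmFit, eBayes, all 6 arrays, no covariate) across all genes, the kept probe set with the highest mean standing for its gene. As pseudocount, 9 was taken from the 25th percentile of all intensities; folds on this scale understate changes of dim genes. The limma fit was tested on values simulated on the log2 scale. Normalization, pseudocount, filter and choice of probe set were not part of that test. The members and lists were chosen with earlier results of these data known. All 10 members are named, as are up to 4 called genes a direction in each list, or the gene with the smallest p where none was called; other genes named were chosen after their values were seen. The number of arrays, 3 a group, limits the precision. The 17 alternatives changed the scaling, the pseudocount, the filter, how probe sets were combined, the variance model, a covariate or a block, or left out an array.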

Additional observations from a re-analysis of the deposited data

How the results depend on the processing

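The 1643 genes called of all tested became 1001 with the deposited values, 913 with no filter, 236 with the Actb ratio as a covariate and 679 with the replicate block, and ran from 472 (without XY 2) to 3307 (without XX 1) when an array was left out. The count of members called, 1 in the main setting, was 0 with the deposited values, with no filter, with the Actb covariate and with the replicate block, and 2 with trimmed mean scaling, a pseudocount of 29, a 70th percentile filter, the mean of probe sets and a variance trend. It ran from 0 to 2 without 1 array, with 2 only without XX 1 (Asf1b and H1f8). Under median scaling it stayed at 1, but the member called was H1f8 (limma adjusted p = 0.0173) and not Asf1b (0.821). The count of 6 genes called on the wider lists was 2, 3, 1 and 1 with the deposited values, no filter, the covariate and the replicate block, and 1 to 11 without 1 array. The 1 member probe set called became 0 with the deposited values and with no filter, and 0 to 2 without 1 array. Asf1a changed sign with the deposited values (-0.0486) and median scaling (-0.21), and Nasp with these (-0.0299 and -0.19) and with the mean of probe sets (-0.14), where a dim probe set kept through its XX arrays alone enters; Hira ran from -1.37 without XY 3 to 0.28 without XX 2. Apart from the probe sets averaged for Nasp and exchanged for Hira, the cause of these differences was not tested. Deviations of same-numbered arrays correlated at -0.10, 0.00 and -0.04, and those of arrays with unlike numbers at -0.06 to 0.10. With 3 arrays a group, these values cannot show whether same-numbered arrays were collected or processed together. The 6 arrays and the dim H3.3 and Hira probe sets set the limit of what can be seen.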

Other observations

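Histone mRNA is processed and guarded by its own set of proteins. Of 7 genes of this supply that were tested, none passed limma's test, 1 had an unadjusted p under 0.05 (32.2% of all genes did), and the median log2 change was 0.00. Lsm11, which encodes part of the U7 particle that cuts histone pre-mRNA, had the smallest p, with levels of 8.66, 8.39 and 8.35 in XX and 8.19, 7.89 and 8.11 in XY and a change of -0.40 ± 0.16 (SE, limma adjusted p = 0.141). Slbp, whose product binds the histone stem-loop and which the oocyte accumulates during maturation, was at -0.17 (adjusted p = 0.562) with overlapping groups.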
